A study of Mus musculus with 18 samples.

Results

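Hepatocellular carcinoma (HCC) lesions of antibiotic-treated wild-type (WT) mice were compared with lesions of untreated WT mice, to ask which transcripts differ in tumours that grew under antibiotics meant to deplete intestinal bacteria. The arrays were chosen by their labelled titles: 3 of antibiotic tumours and 7 of WT tumours, 10 of the 18 arrays in the series. Both groups were male C3H/HeOuJ mice, a strain with intact Tlr4. Both received the carcinogen diethylnitrosamine (DEN, 100 mg/kg) at 12 weeks of age and 6 injections of the hepatotoxin carbon tetrachloride (CCl4, 0.5 ml/kg) between weeks 13 and 23. Lesions of both were dissected at 54 weeks. The antibiotic mice in addition drank ampicillin, neomycin and metronidazole at 1 g/l each and vancomycin at 500 mg/l from week 10 to week 54, so treatment covered the carcinogen, the injury and the growth of the tumours. Where levels in other groups are given, they come from 5 HCC lesions of male C3H/HeJ mice, labelled TLR4 mutant (Tlr4P712H), after the same DEN and CCl4, and from 3 livers of untreated male C3H/HeOuJ mice aged 15 weeks. No source used here says that the samples of a group were separate animals, so the p-values reflect only how much these samples vary, and that variation could be technical.

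Lipopolysaccharide (LPS) from intestinal bacteria reaches the liver through the portal vein. It is carried by the binding protein Lbp to Cd14 and to the receptor Tlr4 with its partner Ly96, which signal through Myd88 to NF-kappaB. Bacteria of the gut also convert bile acids, and their removal by antibiotics changes the bile acids that return to the liver. DEN damages DNA in hepatocytes, and repeated CCl4 causes injury, regeneration and scarring in which the resulting tumours grow.

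The deposited values are log2 GCRMA signals, 1 per probe set, and a probe set was tested when it exceeded log2 4 on at least 3 of the 18 arrays. The median log2 signal of the tested probe sets was 6.76 to 6.85 in WT tumours and 6.69 to 6.85 in antibiotic tumours. The hepatocyte products Alb, Ttr and Apoa1 were above log2 14.4 on every one of the 10 arrays. The tumour marker Gpc3 was at 6.27 to 11.26 in WT tumours and 8.78 to 10.84 in antibiotic tumours, against a mean of 2.33 in normal liver. WT tumours 17 and 19 stood apart on the first principal component of the 10 arrays (32.6% of the variance) and antibiotic tumour 30 on the second (18.3%). The pancreatic lipase-related gene Pnliprp1 was at 9.0 in WT tumour 17 and 8.44 in WT tumour 19, and at 2.50 or lower on the other 8 arrays. Of 11 listed pancreatic acinar genes on the array, 2 were tested, and Pnliprp1 is the one with the larger difference. Control probe sets at both ends of a transcript give its 3' minus 5' signal, a measure of RNA integrity and labelling. It was 0.42 ± 0.15 (log2, SD, n = 7) in WT and 0.40 ± 0.13 (n = 3) in antibiotic tumours for Gapdh (two-sided exact permutation test, p = 0.858). It was 2.14 ± 0.17 and 2.03 ± 0.17 for Actb (exact permutation p = 0.367), and 5.74 ± 0.58 and 6.47 ± 0.32 for Pcx (exact permutation p = 0.1, adjusted p = 0.3 over 3 genes). With 120 ways to split 10 arrays, 0.00833 is the smallest p this test can give. In the 3 normal livers the 3' minus 5' signal was 1.52 ± 0.13 for Gapdh, 3.90 ± 0.31 for Actb and 6.29 ± 0.23 for Pcx (log2, SD). For Gapdh and Actb this was above both tumour groups, so levels set beside normal liver may carry a difference in RNA or labelling, which was not tested.

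Most probe sets that passed the test were lower in antibiotic tumours. Of 16663 probe sets, 92 passed at a limma adjusted p under 0.05 (0.552%): 90 were lower (0.540%) and 2 were higher (0.0120%). For 16 of the falls every antibiotic signal was at or below log2 4, so their size is known only as a bound. With those at their bound, 57 of the 92 differed by 2-fold or more, and the median fall was -1.15 (-1.22 as fitted, from -3.22 to -0.57). The 90 lower probe sets name 72 genes. The 2 rises were those of Sult1e1 and Tmem238. Of the 92, 8 exceeded log2 4 in 1 group alone, Sult1e1 in antibiotic tumours and 7 lower probe sets in WT tumours. These met the filter only through the group in which they were high. Without adjustment, 2839 probe sets had p under 0.05, of which 1725 were lower (10.4%) and 1114 higher (6.69%). The antibiotic arrays all lay above or all below the 7 WT arrays at 842 probe sets (5.05%), with 588 lower (3.53%) and 254 higher (1.52%), and at 89 of the 92 that passed.

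The count depended on how the spread was estimated and on single arrays. The fit behind the 92 calls shared 1 spread over all 18 arrays, the 3 normal livers included. A limma fit of the 10 arrays alone called 1 probe set, that of Chka, with 2147 at an unadjusted p under 0.05. A fit of the 15 tumours, without the normal livers, called 29. Whether a different spread in normal liver has a part in this was not tested. Leaving out antibiotic tumour 30 left 14 calls, and without WT tumour 22 there were 271. Without WT tumour 18, 19, 20 or 21 the counts were 38, 34, 39 and 58. Without antibiotic tumour 28 there were 96 calls, 49 of them higher; 31 of these 96 were among the 92 called with all arrays. The predominance of falls therefore held with all arrays but not without antibiotic tumour 28.

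**Figure D1:**
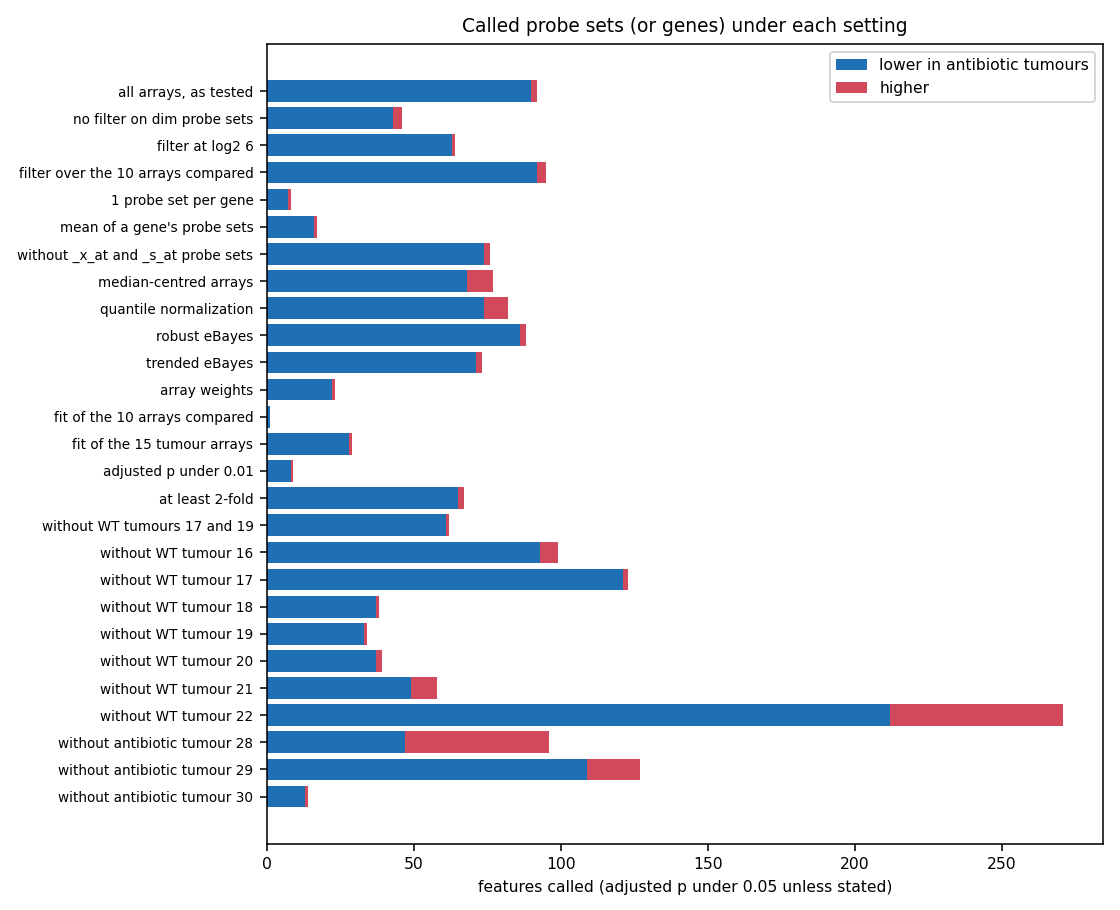
Bars give the number of features called lower (blue) and higher (red) in antibiotic than in WT tumours under each setting, with adjusted p under 0.05 unless stated. All 18 arrays gave 90 lower and 2 higher, the fit of the 10 arrays 1 call, and the removal of antibiotic tumour 28 gave 47 lower and 49 higher.

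Of the genes that passed, Sult1e1 had the largest rise, Malat1 passed on the most probe sets and Chka had the largest fall. Their promoters are given as the 250 bases before the annotated start, from RefSeq on GRCm38.p6, 5′ to 3′ on the strand of the gene. Sult1e1 is at chr5:87591612-87591861 on the minus strand, Malat1 at chr19:5802673-5802922 on the minus strand and Chka at chr19:3851523-3851772 on the plus strand. Capitals mark matches on either strand to 4 short motifs. The first is the core promoter element TATAAA, whose factor places the start of transcription. The others are the proximal element CCAAT, which is bound by the factor NF-Y, and the GC box GGGCGG, which is bound by Sp family factors. The last is the sequence AGGTCA, a core site of nuclear receptors.
Sult1e1: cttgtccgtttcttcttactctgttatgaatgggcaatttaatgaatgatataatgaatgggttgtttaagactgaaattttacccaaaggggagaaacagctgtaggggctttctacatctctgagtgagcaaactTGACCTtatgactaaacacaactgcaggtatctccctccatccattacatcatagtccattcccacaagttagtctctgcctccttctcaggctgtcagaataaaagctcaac
Malat1: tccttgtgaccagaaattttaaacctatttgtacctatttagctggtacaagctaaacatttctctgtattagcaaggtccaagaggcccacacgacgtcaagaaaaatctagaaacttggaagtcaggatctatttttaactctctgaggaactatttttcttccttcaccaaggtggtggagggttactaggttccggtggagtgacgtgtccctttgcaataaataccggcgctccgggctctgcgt
Chka: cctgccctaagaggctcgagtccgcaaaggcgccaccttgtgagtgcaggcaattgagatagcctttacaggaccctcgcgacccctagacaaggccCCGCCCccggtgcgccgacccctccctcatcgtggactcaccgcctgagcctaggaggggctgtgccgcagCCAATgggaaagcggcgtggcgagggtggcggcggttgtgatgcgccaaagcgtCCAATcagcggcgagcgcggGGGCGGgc
The Sult1e1 window held 1 nuclear receptor match and 1 CG dinucleotide, with 40.8% G and C. The Malat1 window held no match to any of the 4 motifs and 8 CG dinucleotides, and the Chka window held 2 CCAAT elements, 2 GC boxes and 24 CG dinucleotides, none of the matches overlapping. Promoters were matched for 59 of the 72 genes with a lower probe set and for 7410 tested genes. A GC box was found in 61.0% of the 59 and 60.3% of the 7410, the CCAAT element in 30.5% and 36.5%, the TATA element in 11.9% and 6.80%, and the nuclear receptor sequence in 10.2% and 11.1%. The median number of CG dinucleotides was 19 and 16. A match is only a description of the letters.

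Sult1e1 encodes the estrogen sulfotransferase, which inactivates estrogens by adding a sulfate group. Its log2 signal was 2.17 at the lowest, 2.54 at the median and 3.07 at the highest in the 7 WT tumours, and 4.79, 6.28 and 7.41 in antibiotic tumours 28, 29 and 30. All 3 antibiotic tumours were above log2 4 and all 7 WT tumours below it. The difference was 3.54 ± 0.38 (log2, SE; limma adjusted p = 0.000868), which is at least 4.47-fold when WT signals are set to log2 4. Because no other array exceeded log2 4, the probe set met the filter only through the 3 antibiotic arrays. It also passed with no filter, when all 45037 probe sets were tested. The mean was 2.63 in Tlr4-mutant tumours and 2.51 in normal liver, both also below log2 4. The call against WT tumours was kept without each of the 10 arrays in turn and was lost in the fit of the 10 arrays alone.

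Tmem238, a small transmembrane protein gene, was at 4.71, 4.94 and 5.38 (lowest, median and highest) in WT tumours and at 6.30, 5.81 and 6.22 in antibiotic tumours. The groups did not overlap, and the rise was 1.08 ± 0.21 (log2, SE; limma adjusted p = 0.0353). It no longer passed without WT tumour 18, 19 or 20 or without antibiotic tumour 28 or 30.

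**Figure D2:**
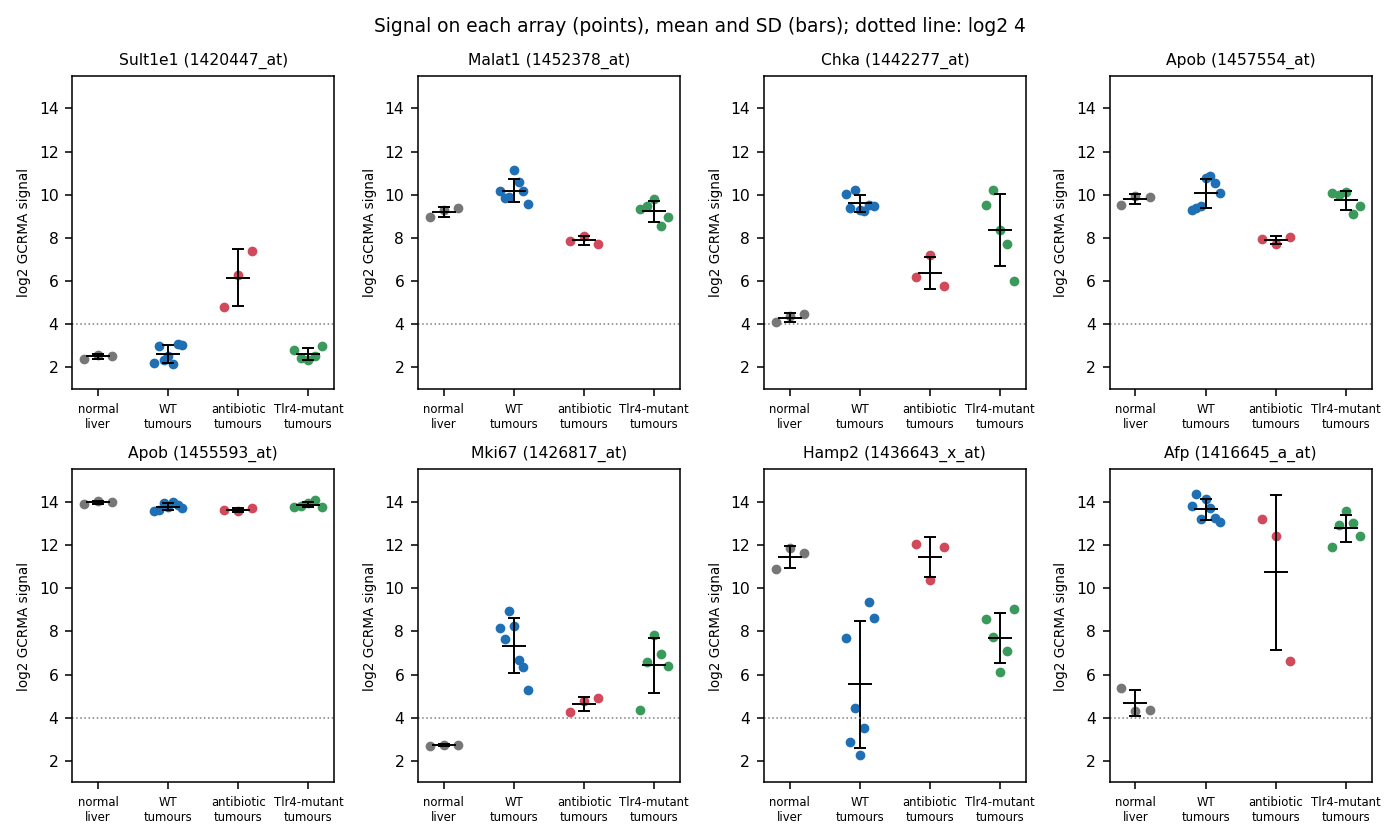
Each point is the log2 GCRMA signal of 1 array, with the mean and SD of each group as bars and log2 4 as a dotted line, for 8 probe sets in 4 groups. Sult1e1 is above log2 4 in the 3 antibiotic tumours alone, Malat1, Chka and one Apob probe set are lower there than in all 7 WT tumours, and the brighter Apob probe set overlaps.

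Malat1, an abundant long noncoding RNA that stays in the nucleus, fell on 6 of its 7 tested probe sets. On the probe set with the smallest p the signal was 9.57, 10.16 and 11.14 (lowest, median and highest) in WT tumours and 7.87, 8.11 and 7.70 in antibiotic tumours. The difference was -2.30 ± 0.29 (log2, SE; limma adjusted p = 0.00339), or 4.94-fold lower, and the groups did not overlap. On a far brighter probe set, the signal was 13.24, 13.64 and 13.88 against 12.22, 12.54 and 12.33, a fall of -1.19 ± 0.18 (limma adjusted p = 0.00821), again with no overlap. The other 4 that passed fell by between 1.46 and 2.08, and the seventh missed the threshold at -0.84 ± 0.19 (limma adjusted p = 0.0616). The probe sets read 1 transcript and are not independent. The first call was kept without each array in turn, whereas the brighter probe set lost it without antibiotic tumour 30 (adjusted p = 0.0504), and both lost it in the fit of the 10 arrays. The mean of the first probe set was 7.89 in antibiotic tumours, 9.23 in Tlr4-mutant tumours and 9.20 in normal liver. Its difference of antibiotic from mutant tumours was -1.34 (limma adjusted p = 0.115). On the brighter probe set the means were 12.36 in antibiotic tumours, 13.12 in mutant tumours and 12.37 in normal liver. The probe sets thus disagreed on whether antibiotic tumours lay below normal liver.

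Malat1 was 1 of 41 tested genes in a list of nuclear-retained transcripts and splicing factors, and the only one whose brightest probe set passed. The median difference of the list was -0.09, against 0.02 over all 9053 genes taken by their brightest probe set. Neat1, the RNA scaffold of nuclear paraspeckles, was at 12.01, 12.62 and 13.08 in WT tumours and at 11.05, 11.51 and 11.55 in antibiotic tumours. These did not overlap, and the difference of -1.17 ± 0.27 did not pass (limma adjusted p = 0.0622).

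Chka encodes choline kinase alpha, which starts the synthesis of phosphatidylcholine from choline. Its signal was 9.25, 9.49 and 10.24 in WT tumours and 6.20, 7.19 and 5.76 in antibiotic tumours, a fall of -3.22 ± 0.62 (log2, SE; limma adjusted p = 0.0320), or 9.34-fold. The groups did not overlap. In normal liver the mean was 4.31, and the 5 mutant tumours ran from 6.0 to 10.24. Both other probe sets of the gene were also apart, with differences of -2.14 and -2.12 that missed the threshold (limma adjusted p = 0.0610 and 0.102). The call was lost without WT tumour 18, 19 or 20 and without antibiotic tumour 28 or 30, and it was the 1 call that the fit of the 10 arrays made.

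Apob, the structural protein of very-low-density lipoproteins, had 2 tested probe sets that differed. On one, the signal was 9.32, 10.08 and 10.88 in WT tumours and 7.96, 7.71 and 8.06 in antibiotic tumours, a fall of -2.16 ± 0.34 (limma adjusted p = 0.0106) with no overlap. On the other, which was brighter, the mean was 13.78 ± 0.15 (SD, n = 7) and 13.63 ± 0.08 (n = 3), and the difference of -0.14 did not pass (limma adjusted p = 0.522). The 2 probe sets of this gene thus gave different results. On the dimmer one antibiotic tumours were also lower than mutant tumours, by -1.84 (limma adjusted p = 0.0425). Its call against WT tumours was lost without antibiotic tumour 30 (adjusted p = 0.0504).

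Trib3, a pseudokinase induced in amino acid and endoplasmic reticulum stress, was at 6.25, 7.88 and 8.48 in WT tumours and 5.57, 5.75 and 5.66 in antibiotic tumours, a fall of -2.02 ± 0.44 (limma adjusted p = 0.0486). Its brighter probe set also lay apart at -1.88 but did not pass (limma adjusted p = 0.0807). The groups did not overlap on either. The Trib3 call was lost when any array but WT tumour 17 or 22 was left out. Xiap, an inhibitor of caspases, was at 8.57, 9.16 and 9.91 in WT tumours and 6.41, 7.74 and 7.40 in antibiotic tumours, a fall of -1.99 ± 0.39 (limma adjusted p = 0.0353). Its groups did not overlap there, but its brighter probe set differed by -0.37 (limma adjusted p = 0.196). The Xiap call was lost without WT tumour 19, 20 or 21 or antibiotic tumour 28 or 30.

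Washc4, a subunit of the WASH complex that builds actin on endosomes, was at 7.0, 7.42 and 8.17 in WT tumours and 5.07, 5.95 and 5.69 in antibiotic tumours. The fall was -1.93 ± 0.25 (limma adjusted p = 0.00339), the groups were apart, and a second, brighter probe set fell by 1.87 (limma adjusted p = 0.0146). Both are of a type that may cross-hybridise. The other 2 probe sets of Washc4 did not pass. One lay apart at -1.53 (limma adjusted p = 0.0622), and the other overlapped at -0.63 (limma adjusted p = 0.151). Bptf, a subunit of the NURF chromatin remodeller, was at 5.14, 5.43 and 6.18 against 3.43, 3.88 and 3.89. All antibiotic signals were below log2 4, so the fall is at least 2.88-fold (limma adjusted p = 0.00581). Its other 2 probe sets, both brighter, differed by -0.18 and -0.13 and did not pass. The first probe set of each gene passed without each array in turn, but not in the fit of the 10 arrays.

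The remaining genes with the largest falls were Lrrc24 (-2.23), the uncharacterised locus 4632427E13Rik (-2.10), the phosphatase gene Ppm1h (-1.70) and the Golgi protein gene Acbd3 (-1.66), and that of the golgin gene Gcc2, at least 2.51-fold with all antibiotic signals below log2 4. In all 5 the groups were apart, with limma adjusted p-values from 0.0189 to 0.0425. Brighter probe sets of 4632427E13Rik, Gcc2 and Acbd3 overlapped and did not pass. They differed by -0.19, -0.48 and -0.59 (limma adjusted p = 0.703, 0.182 and 0.267). Lrrc24 and Ppm1h had no other tested probe set. Each of the 5 calls was lost without antibiotic tumour 30. The calls of 4632427E13Rik, Acbd3 and Gcc2 were also lost without antibiotic tumour 28, that of Lrrc24 without antibiotic tumour 29, and those of Acbd3, Gcc2 and Lrrc24 without some of WT tumours 18 to 21.

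Further genes are named here after their values were seen, and their probe sets often disagreed. Chd4, a subunit of the NuRD chromatin remodeller, fell on 2 probe sets (-1.21 and -1.16), while the other one differed by -0.08 (limma adjusted p = 0.850). Ctr9, a subunit of the PAF1 elongation complex, fell on 2 probe sets, by 1.12 and 0.83. The corepressor gene Rcor1 fell by 1.13, and its brighter probe set differed by -0.73 (limma adjusted p = 0.0801). The poly(A) polymerase gene Papola fell by 1.55, but its brightest probe set differed by -0.01 (limma adjusted p = 0.981). The initiation factor gene Eif3a fell by 1.25, but its 2 brighter probe sets differed by -0.13 and -0.28 (limma adjusted p = 0.568 and 0.295). No test was made of whether any function is more frequent among these genes than among all genes.

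**Figure D3:**
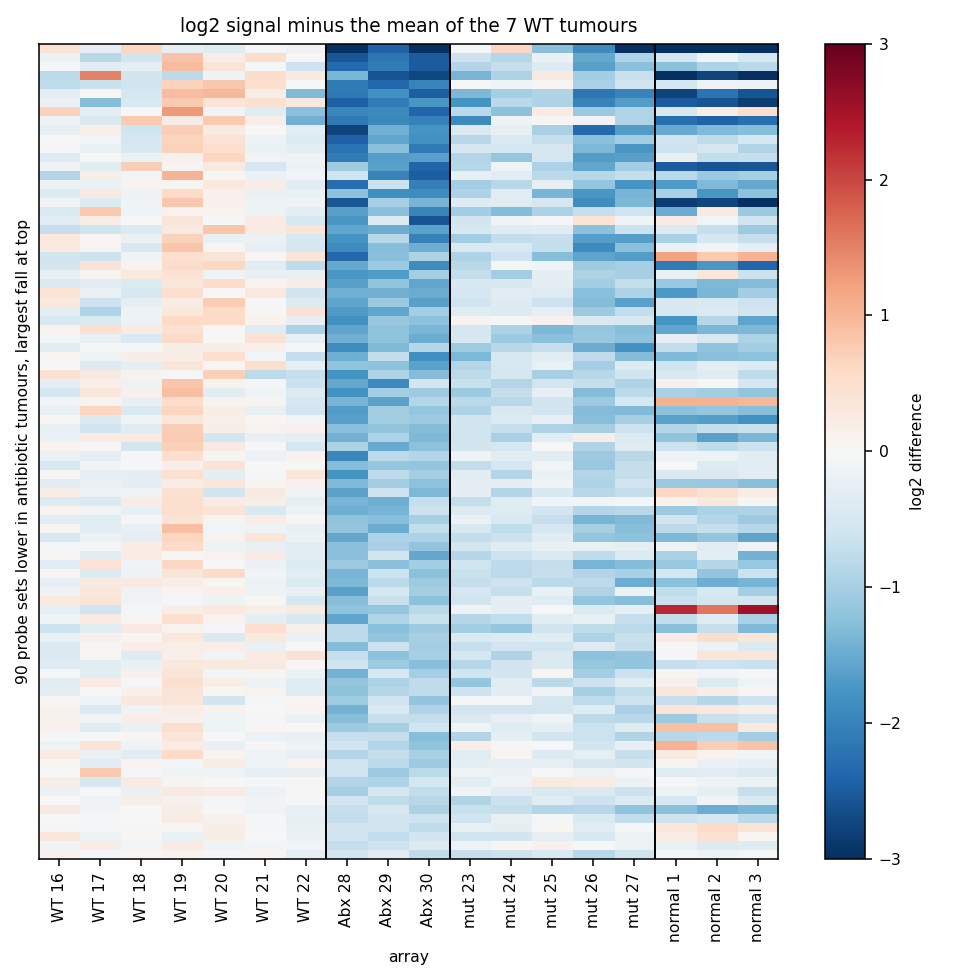
Each row is 1 of the 90 lower probe sets, ordered by the size of the fall, each column is 1 of the 18 arrays, and colour is log2 signal minus the mean of the 7 WT tumours. The 3 antibiotic columns are blue throughout, with medians of -1.42, -1.08 and -1.18, and most mutant columns are a paler blue.

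For most of the 72 genes, another probe set of the same gene differed less. That follows in part from the selection, because the other probe sets are those that did not pass. There were 134 other tested probe sets for 67 of these genes, and 121 of the 134 (90.3%) were lower in sign in antibiotic tumours, against 52.4% of all tested probe sets, with a median difference of -0.32. At an unadjusted limma p under 0.05, 56 (41.8%) were lower and 1, of the kinesin gene Kif1b, higher, where 10.4% of all were lower. All antibiotic tumours lay below all WT tumours at 32 (23.9%, against 3.53% of all) and above them at 0. These probe sets read the same RNA on the same arrays as those that passed, so they are not independent of them. In 55 of the 72 genes another probe set was brighter than the one that passed, and 5 genes passed on 2 or more. Taking each gene by its brightest probe set, 17 of 9053 genes passed (0.188%), 15 lower (0.166%) and 2 higher (0.0221%), and the groups were apart for 366 (4.04%), with 203 lower (2.24%) and 163 higher (1.80%). These p-values are adjusted over all 16663 probe sets. Adjusted over the 9053 genes, 8 passed, 7 lower and Sult1e1 higher. At an unadjusted p under 0.05, 704 genes were lower (7.78%) and 683 higher (7.54%), which are the shares for the gene lists below. The 15 include Malat1, Washc4, Lrrc24, Ppm1h, Chd4, Kdm5b, Thoc2 and Ctr9, but not Chka, Apob, Xiap, Trib3 or Bptf.

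The genes with a lower probe set had a longer genomic span than all genes with a length. The genomic span of the 72 was 53.9 kb at the median (quartiles 28 and 103.6 kb), against 24.4 kb (10.6 and 56.0 kb) for 9041 genes with a length. Of the 72, 67 had another tested probe set, where 3586 of 9053 genes had more than 1. Genes with several probe sets had more chances to be among the 72. Over all genes, by brightest probe set, the median difference ran from 0.07 in the shortest of 4 equal groups of genes to -0.03 in the longest. Of the 15 genes lower by that probe set, 3, 2, 5 and 5 were in these groups, from shortest to longest. Probe sets designed on expressed sequence tags were 56.7% of the 90 and 42.3% of all tested, and those designed on RefSeq transcripts 6.67% and 17.5%. Their mean signal was not unusual, at a median of 6.63 in WT tumours against 6.76 over all probe sets. The part of gene length, probe position or unspliced RNA in these differences was not tested.

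The 90 lower probe sets were set beside the Tlr4-mutant tumours, whose labels name no antibiotics. Relative to the WT mean, the median over the 90 was -0.95 to -0.39 on the 5 mutant arrays, -0.68 to -0.50 on the 3 normal livers and -0.22 to 0.37 on the WT arrays themselves. These probe sets were selected in part for high WT signals, so the medians are a description. The median difference of antibiotic from mutant tumours was -0.56 over the 90 and -0.01 over all probe sets. Of the 92 probe sets 2 passed in that comparison, Sult1e1 and the Apob probe set, where 35 of 16663 passed overall (0.210%). The same 3 antibiotic arrays entered both the selection and this comparison, so nothing is read from these values.

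No gene of LPS recognition passed, where 0.188% of all genes did. Tlr4 itself was at or below 3.82 in every WT tumour and 3.16 in every antibiotic tumour, under the limit of log2 4, and was not tested. Cd14 was at 7.34, 9.44 and 10.26 in WT tumours and 7.07, 10.77 and 7.50 in antibiotic tumours, which overlap (difference -0.74, limma adjusted p = 0.605). The difference was -0.05 without antibiotic tumour 28 and -1.90 without antibiotic tumour 29. Ly96 differed by -0.65 and Lbp by -0.25 (limma adjusted p = 0.397 and 0.881), and Lbp turned positive without WT tumour 17 or antibiotic tumour 28. The largest difference in the list of LPS receptor and TLR signalling genes was that of Tlr1, at 6.48, 9.03 and 9.94 against 7.90, 6.81 and 2.48. Antibiotic tumour 30 alone was far below, and the difference of -3.04 did not pass (limma adjusted p = 0.148) and was -1.41 without that tumour. None of the 21 tested members passed with limma, and 4 were lower and 0 higher at an unadjusted p under 0.05. The list's median was -0.18, or -0.12 with genes below log2 4 at their bound. Among 17 NF-kappaB targets none passed, 1 was higher and 1 lower at an unadjusted p under 0.05, and the median was 0.07. The acute phase gene Saa1 spanned 8.20 to 12.85 in WT tumours and 8.83 to 12.48 in antibiotic tumours. The epiregulin gene Ereg was below log2 4 on all 10 arrays and was not tested, and Hbegf, another EGF receptor ligand, differed by 0.17 (limma adjusted p = 0.888).

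Some proliferation genes were below the WT range in all antibiotic tumours, but none passed. Mki67, the classic proliferation marker, was at 5.30, 7.66 and 8.94 in WT tumours and at 4.27, 4.78 and 4.89 in antibiotic tumours. The groups were apart, and the difference of -2.68 ± 0.69 did not pass (limma adjusted p = 0.0806), although it did without WT tumour 22. Ccna2, Ccnb2 and Cenpa, which act in mitosis, were also apart. Ccnb2 and Cenpa differed by -2.39 and -1.73 (limma adjusted p = 0.102 and 0.0969), and Ccna2, with all antibiotic signals below log2 4, lay at least 2.99-fold below (limma adjusted p = 0.0599). Of 26 tested cell cycle genes 4 lay apart below WT tumours, where 203 of 9053 genes did (2.24%), and 11 were lower and 3 higher at an unadjusted p under 0.05. Members of the replicative helicase ran the other way in sign, Mcm5 at 0.84 and Mcm3 at 0.59. The median of the list was -0.15, or -0.02 with genes below log2 4 at their bound, and Ccnd1 was level at 10.30 ± 0.21 (SD, n = 7) and 10.29 ± 0.62 (n = 3), a difference of -0.01 that changes sign with several settings.

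The differences of the tumour markers Afp and Akr1c18 came largely from 1 array. The fetal protein gene Afp was at 13.09, 13.72 and 14.37 in WT tumours and at 13.18, 12.42 and 6.63 in antibiotic tumours 28, 29 and 30, so its difference of -2.91 (limma adjusted p = 0.135) rests largely on antibiotic tumour 30, and is -0.85 without it. The hydroxysteroid dehydrogenase gene Akr1c18 was at 10.20, 11.72 and 12.35 against 11.07, 10.77 and 2.90. Without antibiotic tumour 30 its difference of -3.32 becomes -0.65. Both genes were low in normal liver too, at a mean of 4.69 for Afp and 2.86 for Akr1c18. Of 21 oncofetal and tumour genes 2 were higher and 19 lower in sign, with a median of -0.56, and none passed with limma, 6 being lower at an unadjusted p under 0.05 (7.78% of all genes were). Gpc3 differed by -0.06 and turned positive in several settings.

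Several genes of mature liver function had high signals in antibiotic tumours and in some WT tumours. Hamp2, a hepcidin gene, was at 2.27, 4.47 and 9.38 in WT tumours and at 12.07, 10.38 and 11.89 in antibiotic tumours, on a probe set of a type that may cross-hybridise. The groups were apart, and the difference of 5.90 ± 1.31 did not pass (limma adjusted p = 0.0575). Cyp7a1, which catalyses the first and limiting step from cholesterol to bile acids, was at 4.26, 8.16 and 10.89 against 11.14, 10.98 and 10.40, which overlap (difference 3.12, limma adjusted p = 0.230). WT tumours 21 and 22, at 10.89 and 10.73, were as high as the antibiotic tumours. Nr0b2, the repressor that lowers Cyp7a1 transcription, was at 6.15, 7.68 and 9.23 against 7.57, 4.63 and 5.96 (difference -1.53, limma adjusted p = 0.261). Of 30 bile acid genes none passed with limma, 4 being higher and 2 lower at an unadjusted p under 0.05, with a median of 0.43.

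The clock gene Usp2 and the periportal gene Etnppl were high in the same WT tumours. Usp2, a clock-controlled ubiquitin protease, was at 2.66, 2.96 and 8.10 in WT tumours, with 8.04 and 8.10 in WT tumours 21 and 22, and at 8.57, 7.41 and 9.07 in antibiotic tumours. The periportal enzyme gene Etnppl was at 2.09, 4.07 and 7.89 against 9.13, 7.68 and 9.11, with 7.89 and 7.58 in WT tumours 21 and 22. Neither difference passed (3.95 and 4.03, limma adjusted p = 0.200 and 0.160). The clock activators Arntl and Clock lay apart below WT tumours, Arntl by at least 2.48-fold, with all antibiotic signals below log2 4, and Clock at -1.68 (limma adjusted p = 0.358 and 0.141), and Per3, a period gene, differed by 2.19. In sign, 17 of 24 clock genes and 15 of 18 periportal genes were higher in antibiotic tumours, with medians of 1.00 and 0.86, where 4700 of 9053 genes were. None passed with limma, 6 and 4 being higher and 1 and 1 lower at an unadjusted p under 0.05. The hour at which lesions were taken is not given in the sources used here, and its part was not tested.

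No gene of the drug and energy metabolism lists passed. Of 52 xenobiotic sensors and drug-metabolising genes, 39 were higher in sign and the median was 0.40. Cyp2c54, a cytochrome P450 with the largest difference, was at 4.41, 7.50 and 10.65 against 11.44, 10.60 and 11.66 (difference 3.48, limma adjusted p = 0.206), with overlap at antibiotic tumour 29. Of 69 respiratory chain genes, 62 were higher in sign, with a median of 0.19, and Uqcrc1, a complex III subunit with the largest difference, was at 9.85 ± 0.34 (SD, n = 7) and 10.35 ± 0.14 (n = 3; limma adjusted p = 0.180). In the list of stress response and serine synthesis genes 28 of 31 were lower in sign, with a median of -0.42, and the largest difference was that of the asparagine synthetase gene Asns (-1.91, limma adjusted p = 0.346). Asns was far lower in antibiotic tumour 30 than in the other two, and its difference was -0.33 without that tumour. Cholesterol synthesis genes were lower in sign in 18 of 22, with a median of -0.18. None of these lists had a member whose brightest probe set passed. At an unadjusted limma p under 0.05, 5 drug metabolism genes were higher and 0 lower, 13 respiratory chain genes higher and 0 lower, 1 stress gene higher and 7 lower, and 0 cholesterol genes higher and 2 lower. Over all 9053 genes 7.54% were higher and 7.78% lower by that measure.

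**Figure D4:**
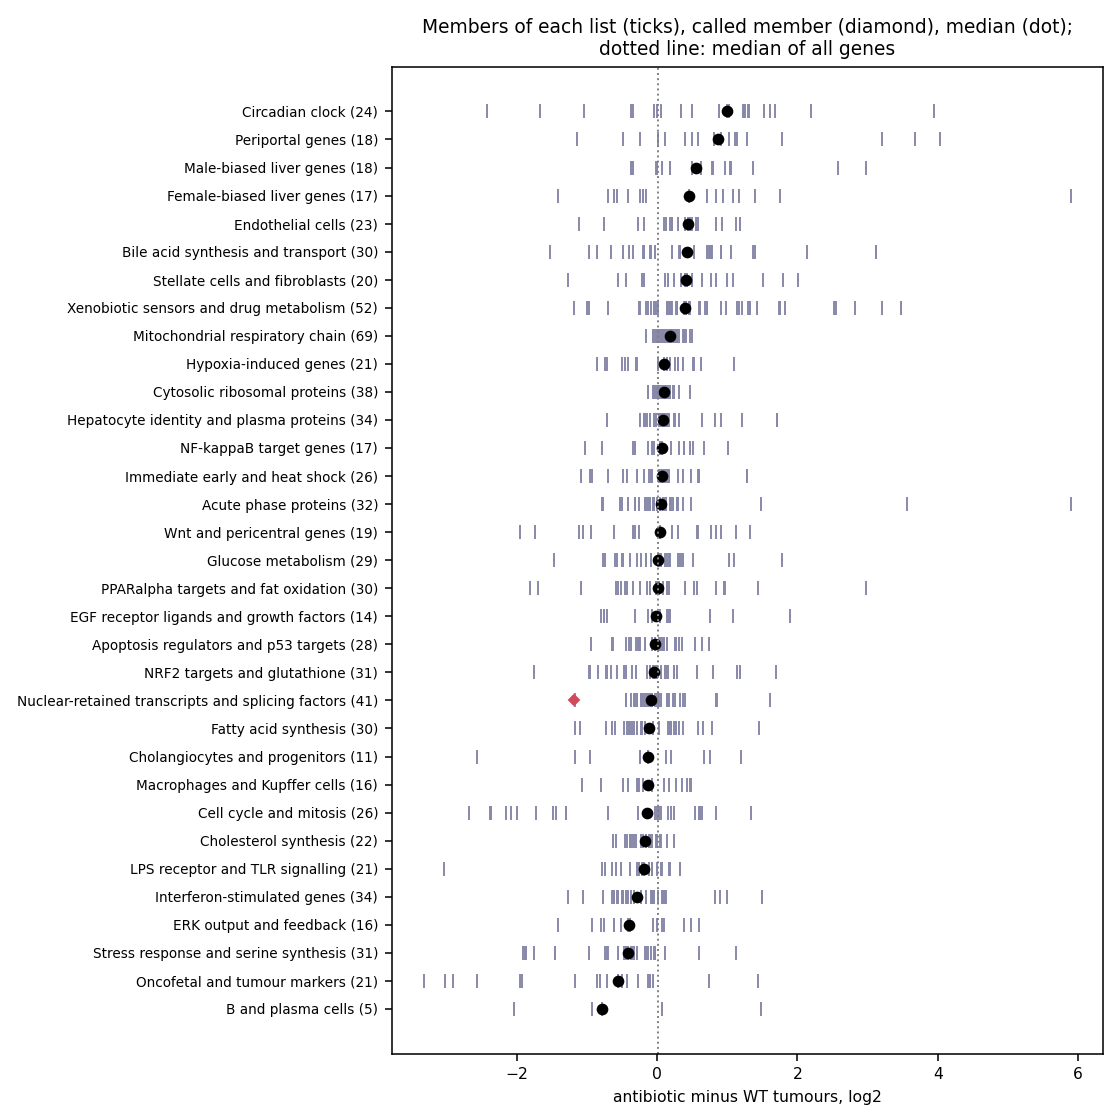
Each tick is a gene, taken by its brightest probe set, at its difference of antibiotic from WT tumours (log2), a diamond is a gene that passed, and the black dot is the list's median, with the number of tested genes in parentheses. Malat1 is the 1 gene that passed, clock and periportal genes have the highest medians, at 1.00 and 0.86, and the dotted line at 0.02 is the median of all 9053 genes.

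Markers of other cell types were examined because bulk lesions mix cells, and fewer cells of a type and less RNA per cell cannot be told apart. None of their genes passed with limma, and 5 were higher and 4 lower at an unadjusted p under 0.05. Over all 9053 genes the shares were 7.54% higher and 7.78% lower, so these counts are not read as a result about the markers. The summed signal of 16 macrophage and Kupffer cell markers was log2 12.79 to 14.05 in WT tumours and 12.37 to 13.75 in antibiotic tumours. That of 20 stellate cell and fibroblast markers was 12.64 to 13.67 and 12.85 to 13.85, and that of 23 endothelial markers 8.64 to 12.28 and 10.78 to 12.60. These ranges overlap, as did those of 34 hepatocyte genes (17.74 to 18.22 and 18.13 to 18.24). Of 24 T and NK cell markers 1, Ccl5, was tested, and of the neutrophil markers 2, S100a8 and S100a9. The plasma cell gene Igha was at 2.87, 8.04 and 9.73 in WT tumours and 5.60, 5.18 and 5.34 in antibiotic tumours (difference -2.04, limma adjusted p = 0.360). The antibiotic tumours lay close together within the WT range. The collagen gene Col1a1 was below log2 4 on all 10 arrays and was not tested. In the erythroid list Car1, a carbonic anhydrase, was at 1.90, 2.36 and 3.81 against 4.66, 4.14 and 4.15, which are apart. All WT signals were below log2 4, so it was at least 1.25-fold higher (limma adjusted p = 0.126). Whether cell mixture has a part in the falls was not tested.

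The non-passing genes of smallest p among the rises were, besides Hamp2, Cnmd (2.96), Cpsf4l, whose mean was below log2 4 in both groups, Ewsr1 (1.01), Odc1 (0.73), Nop53 (0.78), Fam193b (0.97), Prox1os (1.5), Timm44 (0.68) and Vamp4 (0.89), with limma adjusted p-values from 0.0518 to 0.0614. Cnmd, the cartilage protein chondromodulin, was at 2.60, 2.78 and 5.12 in WT tumours and 6.87, 5.84 and 6.70 in antibiotic tumours, which are apart. Odc1, the first enzyme of polyamine synthesis, was at 4.71, 5.16 and 5.64 against 5.72, 6.06 and 5.90, also apart. All 10 of these genes passed without WT tumour 22.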

How the data were processed

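Total RNA of HCC lesions was amplified, labelled and hybridised to Affymetrix mouse arrays, per the labels' protocols. The authors deposited log2 signals made with GCRMA, per the submitters' processing notes, which give no version. Groups and sample numbers came from the titles. Of 45101 probe sets, 64 are controls; 16663 exceeded log2 4 on at least 3 arrays and were tested, of which 14689 list 1 gene symbol, 466 several and 1508 none. Differences were tested two-sided in limma 3.58.1 (R 4.3.3), from 1 model of the 4 group means in which all 18 arrays share the spread, and p-values were adjusted by Benjamini-Hochberg over the 16663. The labels name no batch. Groups are called apart when they do not overlap. A group at or below log2 4 on every array gives a fold computed against log2 4, written as at least. Arrays have no read depth, and the number of arrays limits the precision.

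Genes named were the 12 largest rises and 12 largest falls that passed with groups apart, filled up with non-passing genes of smallest p, up to 3 passing members of each list or, in lists without one, the member with the largest difference, and a set of LPS, tumour and bile acid genes. Members of 40 hand-written lists (1149 genes, 819 tested) were taken by the probe set of highest mean. The members and lists were chosen with earlier results of these data known. Further list members and the chromatin and messenger RNA genes were named after their values were seen. Alternatives were other filters, normalizations, variance models, fits of fewer arrays, 1 value per gene, and leaving out each array. The procedure was tested on simulated data. Figures used python 3.11.15 and matplotlib 3.10.9.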

Additional observations from a re-analysis of the deposited data

Results flagged for a closer look

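Among 71 named probe sets tested for a WT tumour far from the other 6, 1 was found, where chance alone gives about 1 in 20: the Tlr1 signal of WT tumour 16 was 6.48, and the nearest of the other 6 WT tumours was at 8.56, a gap of 0.602 of the range of the group. As 1 in 71 is a smaller share than 1 in 20, nothing is read from this value. The antibiotic tumours were not tested in this way.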

How the results depend on the processing

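Against 92 calls with all arrays, the number of probe sets or genes called was 46 with no filter on dim probe sets, 8 with 1 probe set per gene, 17 with probe sets averaged by gene, 23 with array weights, 1 in the fit of the 10 arrays, 29 in the fit of the 15 tumours, 9 at an adjusted p under 0.01, and 14 to 271 when 1 array was left out. The probe sets whose groups did not overlap numbered 842, 1587 with no filter, 1270 without WT tumours 17 and 19, and 927 to 2331 when 1 array was left out. By its definition this count can only stay or rise when arrays are left out or the filter is dropped. Of the called probe sets, 2 also differed from mutant tumours. This became 1 with no filter, with a filter at log2 6, in the fit of the 15 tumours and at an adjusted p under 0.01, 4 with array weights, 8 without WT tumours 17 and 19, and 1 to 5 when 1 array was left out. The lists with at least 1 member that passed numbered 1. They numbered 2 with probe sets averaged by gene or without probe sets that may cross-hybridise, 0 in the fit of the 10 arrays, and 0 to 8 when 1 array was left out. The cause of the changes in the other counts was not tested. Of 15 named calls none changed sign under the 26 settings, but 11 were lost when some array was left out, and all but that of Chka were lost in the fit of the 10 arrays. Signs turned for non-passing genes: Ccl5 to -0.14 with array weights and -0.54 without WT tumours 17 and 19, Ccnd1 to 0.011 with probe sets averaged by gene, 0.014 with centred arrays, 0.046 with array weights and 0.077 without WT tumours 17 and 19, Clec4g to -0.25 and Gpc3 to 0.52 without those tumours, Hbegf to -0.0097 with array weights and Vamp4 to -0.085 with 1 probe set per gene. With 1 array left out the ranges were -1.13 to 0.82 for Ccl5, -0.36 to 0.21 for Ccnd1, -0.68 to 0.35 for Gpc3, -0.95 to 2.22 for Adm, -0.65 to 0.99 for Hbegf, -1.10 to 0.39 for Lbp, -2.11 to 0.062 for Lyz2, -1.07 to 0.25 for S100a8 and -0.86 to 0.96 for Saa1. The Gapdh 3' minus 5' difference ran from -0.084 to 0.049, that of Actb from -0.18 to -0.02 and that of Pcx from 0.55 to 0.89. For Pcx the unadjusted exact permutation p was 0.0476 without WT tumour 21 and 0.0357 without WT tumour 22. Without any other single array it was 0.107 or more. Signals under log2 4 could not be compared. No paired analysis was possible because WT tumours are numbered 16 to 22 and antibiotic tumours 28 to 30, and share no number.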
